A study of Homo sapiens with 9 samples.

Results

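The genes described here are 10 receptor tyrosine kinases for growth factors and related ligands, namely MET, MST1R, EGFR, ERBB2, ERBB3, FGFR2, FGFR3, FGFR4, EPHA2 and AXL, in Huh7 cells, an established human hepatocarcinoma line. Their members on the array were every probe set that the platform annotation gave to 1 of these symbols alone, which came to 42 of 54613 probe sets, or 10 of 19775 genes. MET was selected on measured values, since its signal was about 4 times as high after either siRNA as after scramble siRNA, so its differences from scramble siRNA are given as values with no test. The other 9 genes hold 38 probe sets.

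RNA was measured on 9 Affymetrix arrays in 3 groups of 3 samples labelled as biological replicates: Huh7 cells with siRNA against DEGS1, Huh7 cells with siRNA against SPTLC1, SPTLC2 and a further subunit gene (called SPTLC123), and Huh7 cells with a scramble siRNA. All 3 groups received the lipid reagent and 20 nM siRNA, and the labels place the RNA at 72 h after transfection. The treatment protocol adds a low-serum medium at 72 h and harvest 24 h later, and which of these applied to the arrays is not given in the sources used here. SPTLC1 and SPTLC2 encode subunits of serine palmitoyltransferase, which begins sphingolipid synthesis, and DEGS1 encodes the desaturase that makes ceramide from dihydroceramide. Every comparison against scramble siRNA uses the same 3 scramble arrays.

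A receptor tyrosine kinase spans the cell membrane, binds its ligand outside and, once paired, phosphorylates itself and docking proteins inside, which feed the RAS and ERK relay and the PI3-kinase relay. In liver, MET is the receptor of hepatocyte growth factor, which drives hepatocyte division and movement after injury. MST1R (RON) is its close relative and binds macrophage-stimulating protein, the ERBB receptors bind the epidermal growth factor family or pair with one another, and FGFR4 with the co-receptor KLB receives FGF19, the intestinal signal that lowers bile acid synthesis.

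Levels are log2 of the normalized intensity of a probe set, a summary of the fluorescence of its short probes, and differences are between group means on that scale. The leading probe sets of the siRNA targets analysed here were lower than in scramble cells. The leading DEGS1 probe set, the one with the highest mean over the 9 arrays, read 4.80 to 5.19 in DEGS1 siRNA cells against 8.59 to 8.84 in scramble cells (-3.73 ± 0.16, difference ± SE). In SPTLC123 siRNA cells SPTLC1 read 8.53 to 8.77, against 10.83 to 11.02 in scramble cells (-2.27 ± 0.12), and SPTLC2 read 4.87 to 5.22, against 5.97 to 6.25 in scramble cells (-1.05 ± 0.11). Of the other 4 SPTLC2 probe sets, 1 was called lower (-1.02, limma adjusted p = 0.012), and the rest, at -1.33, -0.24 and 0.06, were not (limma adjusted p = 0.0576, 0.719 and 0.893). In 3 arrays, DEGS1 siRNA replicates 2 and 3 and SPTLC123 siRNA replicate 3, the actin control probe set at the 3′ end read above the one at the 5′ end by 1.15 to 1.31, against 0.40 to 0.56 in the other 6 arrays. These 3 are called the arrays of weak 5′ signal below. The sum of 10 hepatocyte markers was 128.27 to 130.10 in DEGS1 siRNA arrays, 126.11 to 127.77 in SPTLC123 siRNA arrays and 130.73 to 132.01 in scramble arrays, and none of the 10 lay below the median level of all probe sets (4.86) in any group. Markers of other liver cell types summed over 12 genes to 62.32 to 63.89, 63.49 to 65.36 and 62.99 to 63.93 in DEGS1, SPTLC123 and scramble siRNA arrays, with 5, 6 and 4 of their 12 group means below that median.

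MET encodes the receptor of hepatocyte growth factor. The 250 bases before its RefSeq start site on GRCh38.p14, chr7:116671946-116672195 on the plus strand, are shown because this gene had the widest differences among the 10, and the capitals mark each GC box (the letters GGGCGG on either strand, a site class bound by SP1).
MET: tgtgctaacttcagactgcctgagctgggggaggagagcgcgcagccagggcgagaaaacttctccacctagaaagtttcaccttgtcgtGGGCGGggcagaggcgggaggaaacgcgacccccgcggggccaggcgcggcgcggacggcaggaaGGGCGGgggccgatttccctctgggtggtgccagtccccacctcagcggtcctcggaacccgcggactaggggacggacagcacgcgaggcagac
This window holds 2 GC boxes and no CCAAT box, a site class named by its letters. It also lacks the letters of a TATA box, TATAAA, and those of an AP-1 site, TGANTCA. Each motif was searched on both strands, and none found overlaps another there. A GC box stands in 42.6% of 35116 RefSeq promoter windows of the same length, so its presence is common, and G or C make up 68.4% of these MET bases.

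The leading MET probe set, 203510_at, read 11.06, 10.82 and 10.90 in DEGS1 siRNA cells, 11.11, 11.11 and 11.17 in SPTLC123 siRNA cells and 9.10, 9.22 and 9.04 in scramble cells. All 6 arrays of the silenced cells lay above all 3 scramble arrays, and the gap between them was several times the spread within any group. Group means were 10.93 ± 0.12 in DEGS1 siRNA cells, 11.13 ± 0.03 in SPTLC123 siRNA cells and 9.12 ± 0.09 in scramble cells (SD, n = 3 each). MET was thus 3.50-fold higher in DEGS1 siRNA cells and 4.03-fold higher in SPTLC123 siRNA cells than in scramble cells, log2 differences of 1.81 and 2.01. The DEGS1 mean was 0.21 below the SPTLC123 mean, with the 3 DEGS1 arrays below the 3 SPTLC123 arrays. In these bulk samples a shift in which cells were present and a shift in RNA per cell cannot be told apart, here or for the genes below.

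The other 3 MET probe sets did not all follow the leading one. Probe set 213816_s_at read 6.40, 6.06 and 5.54 in DEGS1 siRNA cells, 5.56, 5.66 and 6.30 in SPTLC123 siRNA cells and 4.26, 3.98 and 4.44 in scramble cells. Its 6 arrays of silenced cells again lay above scramble, by 1.77 (3.42-fold) after DEGS1 siRNA and 1.61 (3.06-fold) after SPTLC123 siRNA, although its scramble level was under the array-wide median. Probe set 211599_x_at read 9.45, 7.41 and 7.31 in DEGS1 siRNA cells, 9.33, 9.57 and 7.89 in SPTLC123 siRNA cells and 7.61, 7.75 and 7.81 in scramble cells. Only DEGS1 replicate 1 stood above scramble in the DEGS1 group, and SPTLC123 replicate 3 stood barely above it. Probe set 213807_x_at read 9.04, 7.29 and 7.14 in DEGS1 siRNA cells, 8.78, 9.02 and 7.53 in SPTLC123 siRNA cells and 7.35, 7.14 and 7.34 in scramble cells, the same split. The low values are those of the 3 arrays of weak 5′ signal, whose part in this split was not tested.

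In the arrays without weak 5′ signal, all 4 MET probe sets read above scramble. There the difference from scramble was 1.94 after DEGS1 siRNA (1 array) and 1.99 after SPTLC123 siRNA (2 arrays) for the leading probe set. For 211599_x_at it was 1.73 in both, 3.31-fold each, whereas over all arrays it was 0.33 after DEGS1 siRNA and 1.20 after SPTLC123 siRNA. For 213807_x_at it was 1.76 after DEGS1 siRNA and 1.63 after SPTLC123 siRNA, against 0.55 and 1.17 over all arrays. For 213816_s_at it was 2.17 after DEGS1 siRNA and 1.39 after SPTLC123 siRNA. The leading probe set thus gave about the same value in either choice of arrays, and the 2 x_at probe sets did not.

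**Figure D1:**
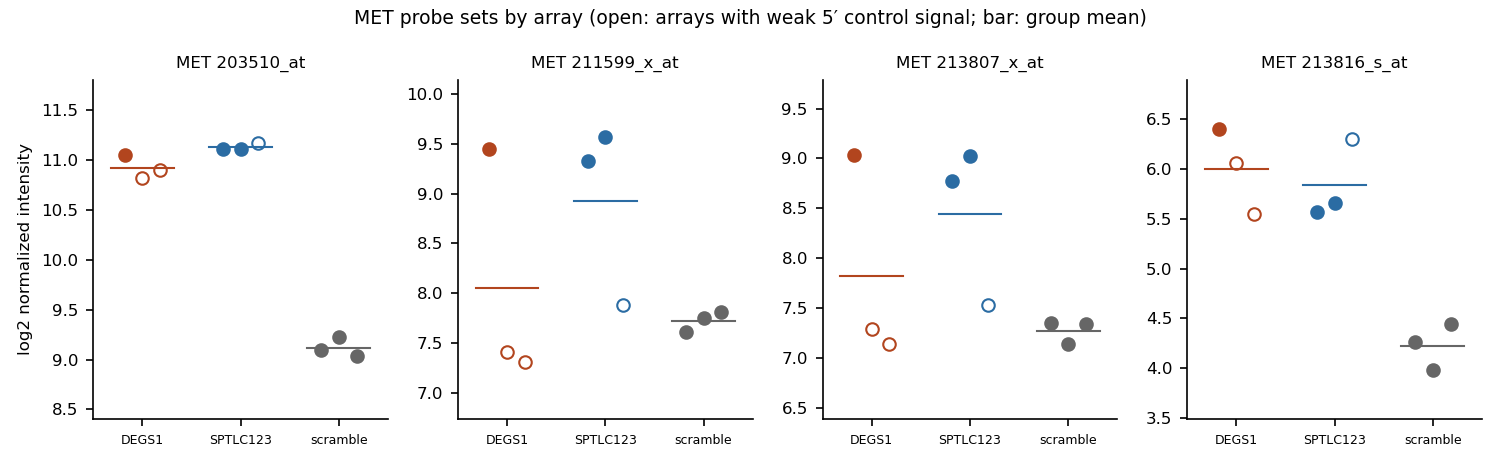
Log2 normalized intensity of the 4 MET probe sets (1 panel each) in DEGS1, SPTLC123 and scramble siRNA arrays, where points are arrays, open points are the arrays of weak 5′ signal and bars are group means. In the leading probe set 203510_at the 6 arrays of silenced cells sit between 10.82 and 11.17 and the scramble arrays between 9.04 and 9.22, while in both x_at panels the open points fall to or near the scramble level.

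Genes whose pattern over the 9 arrays came closest to that of the leading MET probe set were found by the root mean square difference of their log2 deviations from the scramble mean, among 12954 genes, whose median distance was 1.58. The nearest 6 were GPRC5B (an orphan G protein-coupled receptor, 0.19), PTPMT1 (a mitochondrial phosphatase needed for cardiolipin synthesis, 0.23), LZTFL1 (a regulator of ciliary trafficking, 0.25), PCDH7 (a protocadherin, 0.29), PIP4K2A (a phosphoinositide kinase, 0.32) and MEX3D (an RNA-binding protein, 0.36). They were selected for the likeness, so their own differences from scramble are description only: 1.48 to 2.02 after DEGS1 siRNA and 1.51 to 2.28 after SPTLC123 siRNA. GPRC5B, the nearest, read 8.50, 8.30 and 8.25 in DEGS1 siRNA cells, 8.86, 8.70 and 8.86 in SPTLC123 siRNA cells and 6.67, 6.84 and 6.94 in scramble cells. None of the other 9 receptor kinases came near MET by this measure: EGFR was closest at 1.07, then FGFR4 at 1.21 and FGFR2 at 1.30, and the other 6 lay between 1.39 and 1.66.

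**Figure D2:**
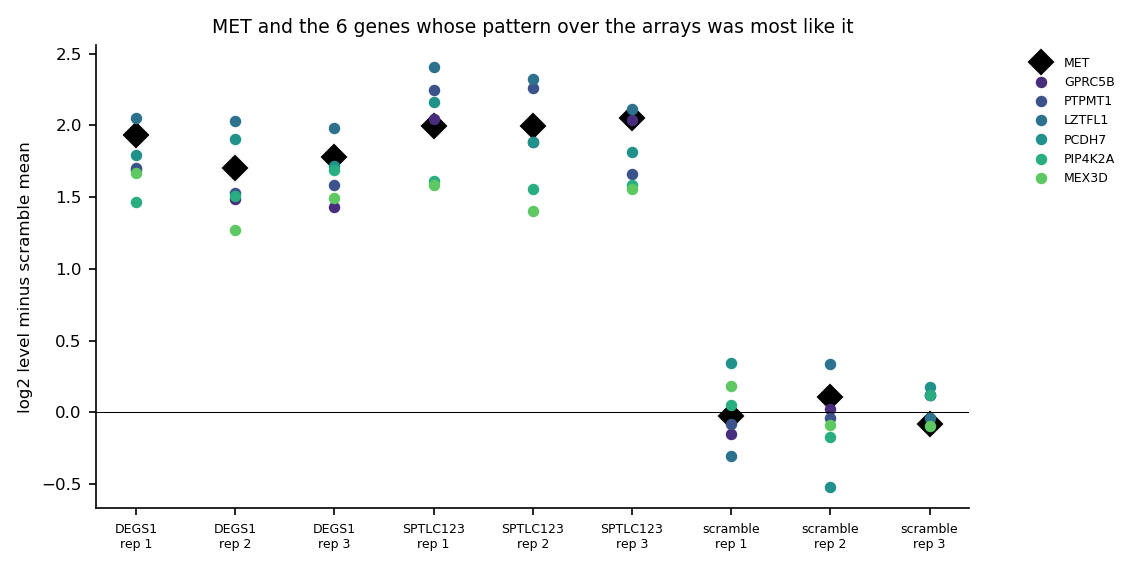
Log2 level minus the gene's scramble mean in each of the 9 arrays (DEGS1, then SPTLC123, then scramble siRNA) for MET (diamonds) and the 6 genes nearest to it (circles). All 7 genes sit well above 0 in the 6 arrays of silenced cells and near 0 in the 3 scramble arrays, which is what they were selected for.

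No gene beside MET on chromosome 7 was called, but 8 genes are too few to set this apart from the share of all genes. Of all 19775 genes, 5.16% were called for DEGS1 minus scramble, 6.42% for SPTLC123 minus scramble and 5.37% for DEGS1 minus SPTLC123. None of the 8 nearest measured genes, TFEC, TES, CAV2 and CAV1 before it and CAPZA2, ST7-AS1, ST7-OT4 and ST7-AS2 after it, passed limma's test in any comparison at an adjusted p under 0.05 (Benjamini-Hochberg over all probe sets). At an unadjusted p under 0.05, limma gave 2 of the 8 for DEGS1 minus scramble, 1 for SPTLC123 minus scramble and 2 for DEGS1 minus SPTLC123. The share of all probe sets at that cut was not counted, here or beside the counts at that cut below. CAPZA2, which encodes an actin capping protein subunit and follows MET directly, differed from scramble by -0.0014 ± 0.17 after DEGS1 siRNA and by 0.03 ± 0.17 after SPTLC123 siRNA (difference ± SE). CAV2, a caveolin, was 0.53 ± 0.13 above scramble after DEGS1 siRNA with groups that did not overlap, and missed the threshold (limma adjusted p = 0.0711), while after SPTLC123 siRNA it differed by 0.08 ± 0.13. The last 3 genes had group means under the array-wide median throughout.

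MST1R, the other receptor of the MET family, did not differ beyond its spread. It read 5.95, 5.82 and 5.77 in DEGS1 siRNA cells, 5.78, 5.70 and 5.60 in SPTLC123 siRNA cells and 5.69, 5.76 and 6.00 in scramble cells. The groups overlapped in every pair, and the differences were 0.03 ± 0.11 for DEGS1 minus scramble, -0.12 ± 0.11 for SPTLC123 minus scramble and 0.15 ± 0.11 for DEGS1 minus SPTLC123 (difference ± SE, limma adjusted p of 0.914, 0.667 and 0.483).

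Among the ERBB receptors, the leading probe sets of ERBB3 and ERBB2 were higher in DEGS1 siRNA cells than in SPTLC123 siRNA cells. ERBB3 has a nearly inactive kinase and signals by pairing with ERBB2 or EGFR, and its ligands are the neuregulins. Its leading probe set, 226213_at, read 10.41, 10.85 and 10.66 in DEGS1 siRNA cells, 9.34, 9.39 and 9.70 in SPTLC123 siRNA cells and 10.03, 9.97 and 9.65 in scramble cells. DEGS1 arrays were the highest without overlap, and SPTLC123 and scramble arrays overlapped. The DEGS1 minus SPTLC123 difference was 1.16 ± 0.15 (2.24-fold, limma adjusted p = 0.00448). A second probe set, 202454_s_at, read 9.92, 10.28 and 10.20 in DEGS1 siRNA cells, 9.00, 8.94 and 9.33 in SPTLC123 siRNA cells and 9.59, 9.50 and 9.31 in scramble cells. It gave the same order, with a DEGS1 minus SPTLC123 difference of 1.04 ± 0.14 (2.06-fold, limma adjusted p = 0.00485). Leaving out any 1 array ended neither call. Without the arrays of weak 5′ signal, which leaves 1 DEGS1 array that is assumed to vary like the others, the differences were 1.05 (limma adjusted p = 0.0567) and 0.95 (limma adjusted p = 0.0497).

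Against scramble, ERBB3 passed the test in DEGS1 siRNA cells on both of these probe sets. The differences were 0.76 ± 0.15 for 226213_at (limma adjusted p = 0.0325) and 0.66 ± 0.14 for 202454_s_at (limma adjusted p = 0.0376). Both calls ended when any of 7 arrays was left out, namely DEGS1 replicate 2 or 3, SPTLC123 replicate 1 or 2 or any scramble array, with adjusted p of 0.0522 to 0.126 and 0.0543 to 0.151. Without the arrays of weak 5′ signal the differences were 0.53 (limma adjusted p = 0.318) and 0.45 (limma adjusted p = 0.329). In SPTLC123 siRNA cells both probe sets were below scramble, by -0.40 ± 0.15 and -0.38 ± 0.14, and missed the threshold (limma adjusted p = 0.218 and 0.206). Probe set 1563253_s_at read 7.84, 6.75 and 6.42 in DEGS1 siRNA cells, 7.00, 7.20 and 6.19 in SPTLC123 siRNA cells and 7.28, 7.36 and 7.41 in scramble cells. Its 3 lowest values are those of the arrays of weak 5′ signal. Without them it was at 0.49 from scramble after DEGS1 siRNA and at -0.25 after SPTLC123 siRNA, with 0.74 for DEGS1 minus SPTLC123.

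ERBB2 (HER2) has no known ligand of its own and is the preferred partner of the other ERBB receptors. The 250 bases before the 1 ERBB2 start site in the RefSeq promoter set used here (GRCh38.p14, chr17:39687844-39688093, plus strand) are shown beside those of MET. ERBB2 was picked because its call was between the silenced groups. The capitals mark the letters of a CCAAT box on the reverse strand and of an AP-1 site.
ERBB2: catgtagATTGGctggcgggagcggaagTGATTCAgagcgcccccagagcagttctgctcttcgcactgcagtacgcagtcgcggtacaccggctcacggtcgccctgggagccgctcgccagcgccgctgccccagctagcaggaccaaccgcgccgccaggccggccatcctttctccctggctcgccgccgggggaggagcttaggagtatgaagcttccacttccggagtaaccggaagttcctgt
This window has no GC box and no TATA box, and G or C make up 65.6% of it. The CCAAT box letters stand in 32.0% of the RefSeq windows and those of the AP-1 site in 6.57%. Both marks are matches of letters only, and whether either acts on ERBB2 was not tested. Other ERBB2 start sites, and other genes that may overlap this window, were not examined, so it may not be the promoter in use. The leading ERBB2 probe set, 216836_s_at, read 8.81, 9.16 and 9.19 in DEGS1 siRNA cells, 8.13, 8.26 and 8.33 in SPTLC123 siRNA cells and 8.76, 8.68 and 8.62 in scramble cells. No group overlapped another: DEGS1 arrays were the highest, scramble arrays lay between and SPTLC123 arrays were the lowest. The DEGS1 minus SPTLC123 difference of 0.81 ± 0.12 passed the test (1.76-fold, limma adjusted p = 0.00658) and did so without any 1 array. Without the arrays of weak 5′ signal it was 0.61 (limma adjusted p = 0.135). The other ERBB2 probe sets, 210930_s_at and 234354_x_at, gave -0.15 and 0.11 for this comparison, with no call (limma adjusted p = 0.9 and 0.608). From scramble, 210930_s_at was at -0.91 after DEGS1 siRNA and -0.76 after SPTLC123 siRNA, also with no call. Its lowest values were in the arrays of weak 5′ signal, without which it gave 0.49 for DEGS1 minus SPTLC123. Against scramble, the leading ERBB2 probe set differed by 0.36 ± 0.12 in DEGS1 siRNA cells and by -0.45 ± 0.12 in SPTLC123 siRNA cells, and neither passed (limma adjusted p = 0.133 and 0.067). The SPTLC123 minus scramble difference passed in 7 of 21 alternative fits, with limma adjusted p over all of them from 0.00552 to 0.214. One of these left out the arrays of weak 5′ signal, where ERBB2 was at -0.49 from scramble in SPTLC123 siRNA cells (limma adjusted p = 0.042) and at 0.12 in DEGS1 siRNA cells (limma adjusted p = 0.869).

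EGFR binds epidermal growth factor, TGFA and amphiregulin. Its leading probe set, 201983_s_at, read 10.59, 10.90 and 11.06 in DEGS1 siRNA cells, 10.37, 10.46 and 10.99 in SPTLC123 siRNA cells and 10.37, 9.89 and 9.97 in scramble cells. All DEGS1 arrays lay above all scramble arrays, and SPTLC123 arrays overlapped both other groups. The differences were 0.77 ± 0.20 for DEGS1 minus scramble and 0.53 ± 0.20 for SPTLC123 minus scramble, and both missed the threshold (limma adjusted p = 0.0728 and 0.211). They were 0.51 and 0.34 without the arrays of weak 5′ signal. The DEGS1 difference passed in 4 of 21 alternative fits, with adjusted p over all of them from 0.00992 to 0.429. Probe set 224999_at gave 0.62 ± 0.18 and 0.39 ± 0.18 for the same comparisons, again without a call, or 0.54 and 0.21 without those arrays. Of the other 7 EGFR probe sets, 201984_s_at differed from scramble by 0.21 after DEGS1 siRNA and 0.07 after SPTLC123 siRNA. Its groups overlapped and it was not called (limma adjusted p = 0.327 and 0.851), and it gave 0.34 and 0.04 without those arrays. Among the same 7, 210984_x_at and 211607_x_at were lower than scramble in DEGS1 siRNA cells by -0.43 and -0.45, and their low arrays were those of weak 5′ signal. Without these arrays both stood above scramble, by 0.37 and 0.41 after DEGS1 siRNA and by 0.25 and 0.42 after SPTLC123 siRNA.

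The fibroblast growth factor receptors gave 1 call, for FGFR2 in SPTLC123 siRNA cells. FGFR2 binds ligands such as FGF7 and FGF10, depending on its splice form. Its leading probe set, 203638_s_at, read 7.52, 7.29 and 7.14 in DEGS1 siRNA cells, 7.99, 7.79 and 7.67 in SPTLC123 siRNA cells and 7.40, 7.24 and 7.06 in scramble cells. SPTLC123 arrays lay above both other groups, which overlapped each other. The SPTLC123 minus scramble difference was 0.58 ± 0.13 (1.50-fold, limma adjusted p = 0.0433), and the DEGS1 minus scramble difference was 0.08 ± 0.13 (limma adjusted p = 0.792). The DEGS1 minus SPTLC123 difference itself, -0.50 ± 0.13, missed the threshold (limma adjusted p = 0.0839), so a difference between the silenced groups was not shown. Leaving out any array other than DEGS1 replicate 1 ended the SPTLC123 call (adjusted p of 0.0509 to 0.153), and without the arrays of weak 5′ signal it stood at 0.66 (limma adjusted p = 0.0357). Of the other 10 FGFR2 probe sets none was called, and 6 of them had group means under the array-wide median throughout.

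FGFR3 and FGFR4 gave no call. FGFR3 read 11.03, 11.74 and 11.60 in DEGS1 siRNA cells, 11.31, 11.35 and 11.74 in SPTLC123 siRNA cells and 11.68, 11.24 and 11.24 in scramble cells on probe set 204379_s_at. The 3 groups covered the same range, with differences from scramble of 0.07 ± 0.21 after DEGS1 siRNA and 0.08 ± 0.21 after SPTLC123 siRNA (limma adjusted p = 0.894 and 0.918). Leaving out the arrays of weak 5′ signal gave -0.36 and -0.06 (limma adjusted p = 0.617 and 0.894). The other FGFR3 probe set, 204380_s_at, gave -0.67 after DEGS1 siRNA and -0.09 after SPTLC123 siRNA, with no call (limma adjusted p = 0.2 and 0.929). Its lowest values were in the arrays of weak 5′ signal, and without them it gave -0.09 and 0.11. FGFR4, the FGF19 receptor of hepatocytes, read 10.50, 10.88 and 10.95 in DEGS1 siRNA cells, 10.60, 10.77 and 11.00 in SPTLC123 siRNA cells and 10.31, 10.37 and 10.33 in scramble cells on probe set 204579_at. All 6 arrays of silenced cells lay above scramble. The differences of 0.44 ± 0.14 after DEGS1 siRNA and 0.45 ± 0.14 after SPTLC123 siRNA nevertheless missed the threshold (limma adjusted p = 0.127 and 0.122). With the arrays of weak 5′ signal left out they were 0.17 and 0.35 (limma adjusted p = 0.776 and 0.12). Probe set 211237_s_at, also without overlap, gave 0.24 ± 0.09 after DEGS1 siRNA and 0.37 ± 0.09 after SPTLC123 siRNA (limma adjusted p = 0.183 and 0.0531), or 0.15 and 0.33 without those arrays. The FGFR4 probe set 1554962_a_at read 8.18, 6.75 and 6.79 in DEGS1 siRNA cells, 8.09, 8.29 and 7.07 in SPTLC123 siRNA cells and 7.71, 7.90 and 8.03 in scramble cells, with the low values in the arrays of weak 5′ signal. Without them it stood above scramble by 0.30 after DEGS1 siRNA and 0.31 after SPTLC123 siRNA.

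EPHA2 binds ephrin-A ligands on neighbouring cells. It read 9.47, 9.67 and 9.52 in DEGS1 siRNA cells, 9.44, 9.00 and 9.18 in SPTLC123 siRNA cells and 9.31, 8.96 and 9.13 in scramble cells. DEGS1 arrays lay above those of both other groups. The differences were 0.42 ± 0.14 for DEGS1 minus scramble, 0.07 ± 0.14 for SPTLC123 minus scramble and 0.34 ± 0.14 for DEGS1 minus SPTLC123, with no call (limma adjusted p = 0.139, 0.873 and 0.232). The arrays without weak 5′ signal gave 0.33, 0.09 and 0.24 (limma adjusted p = 0.685, 0.836 and 0.781). AXL, the receptor of GAS6, read 5.61, 5.63 and 5.61 in DEGS1 siRNA cells, 5.20, 5.44 and 5.50 in SPTLC123 siRNA cells and 5.66, 5.54 and 5.45 in scramble cells. Scramble arrays overlapped both silenced groups. Its differences were 0.07 ± 0.10 for DEGS1 minus scramble, -0.17 ± 0.10 for SPTLC123 minus scramble and 0.23 ± 0.10 for DEGS1 minus SPTLC123 (limma adjusted p = 0.779, 0.485 and 0.27). Its other probe set was near 3 in every group, below the median of all probe sets.

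**Figure D3:**
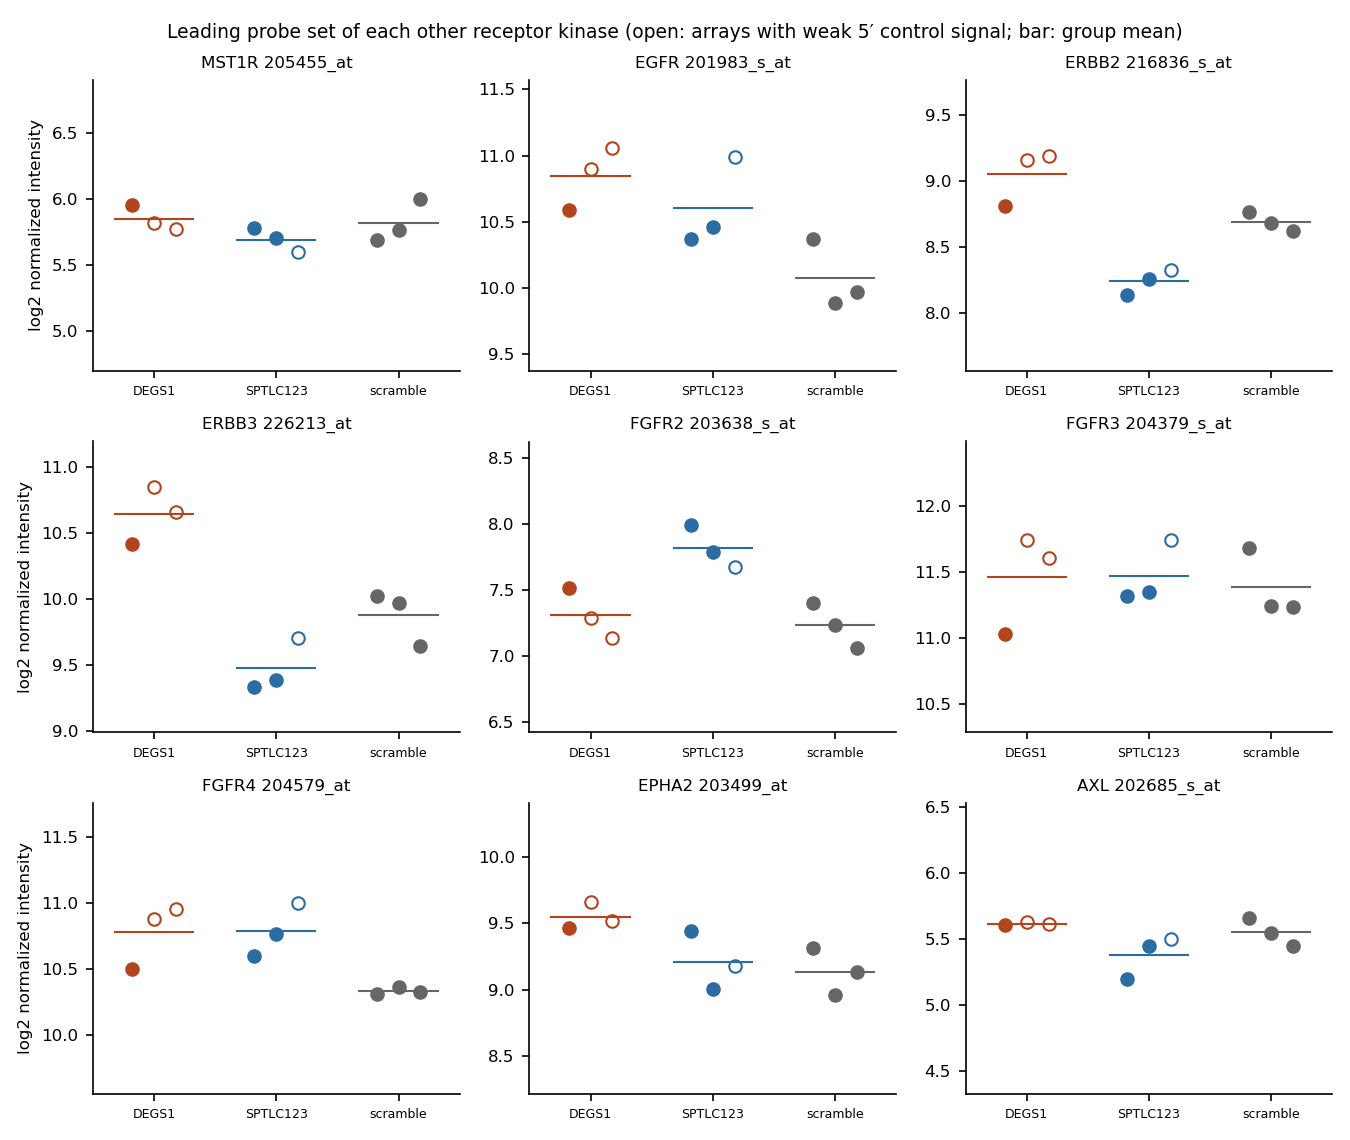
Log2 normalized intensity of the leading probe set of each of the 9 other receptor kinases (1 panel each) in DEGS1, SPTLC123 and scramble siRNA arrays, where points are arrays, open points are the arrays of weak 5′ signal and bars are group means. ERBB3 and ERBB2 stand higher in DEGS1 than in SPTLC123 siRNA arrays, the SPTLC123 siRNA arrays of FGFR2 stand above both its other groups, and MST1R, FGFR3 and AXL overlap scramble in both silenced groups.

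Over the 9 genes other than MET, few probe sets passed. In DEGS1 siRNA cells against scramble, 2 of 38 (5.26%) were called, both ERBB3 and both higher, beside 3.42% of all probe sets tested (1.82% higher). In SPTLC123 siRNA cells against scramble, 1 of 38 (2.63%) was called, FGFR2 and higher, beside 4.52% of all (2.63% higher). Between DEGS1 and SPTLC123 siRNA cells, 3 of 38 (7.89%) were called, 2 of ERBB3 and 1 of ERBB2, all higher after DEGS1 siRNA, beside 3.69% of all (1.58% higher). Groups did not overlap in 10 of 38 for DEGS1 minus scramble (9 higher and 1 lower, beside 21.3% of all, 10.5% higher and 10.8% lower), in 9 of 38 for SPTLC123 minus scramble (4 higher and 5 lower, beside 22.4% of all, 10.5% higher and 12.0% lower) and in 8 of 38 for DEGS1 minus SPTLC123 (7 higher and 1 lower, beside 19.8% of all, 10.3% higher and 9.48% lower). The median difference of the 38 was 0.04, 0.03 and 0.02 in these 3 comparisons, and that of all probe sets was -0.0027, -0.018 and 0.019. Of the 38, 25 had at least 1 group mean above the median level of all probe sets.

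**Figure D4:**
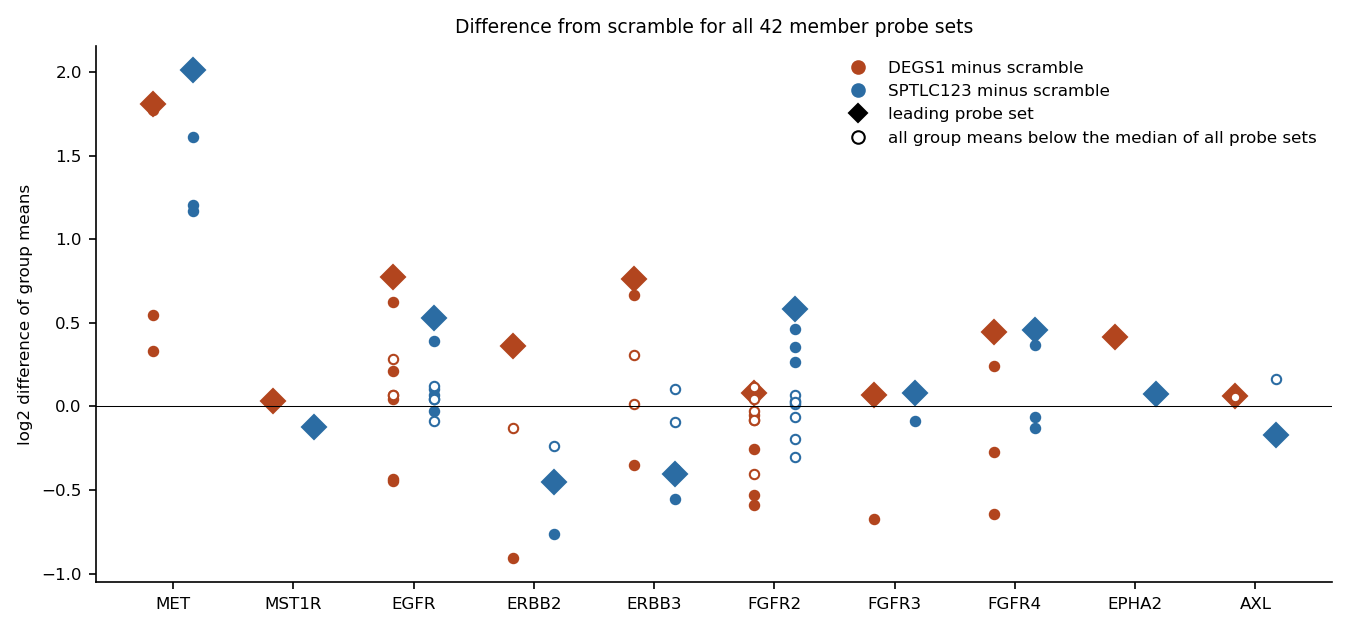
Log2 difference from scramble siRNA of each of the 42 probe sets, by gene, for DEGS1 siRNA and SPTLC123 siRNA, where diamonds are leading probe sets and open symbols are probe sets whose group means all lay below the median level of all probe sets. The leading MET probe set stands at 1.81 and 2.01, and every probe set of the other 9 genes lies between -0.91 and 0.77.

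Probe sets of the same receptor often disagreed, and many of the low values were in the arrays of weak 5′ signal. In each silenced group the mean of its arrays of weak 5′ signal was set against its other arrays. Of the 42 probe sets, 11 (26.2%) were lower by at least 0.5 in both groups, a bound chosen after the values were seen, beside 3.78% of every probe set on the array. Among probe sets with a group mean above the median the shares were 37.9% of 29 and 6.92%. The 11 were 2 of MET, 2 of EGFR, 1 of ERBB2, 1 of ERBB3, 3 of FGFR2, 1 of FGFR3 and 1 of FGFR4. None of the 42 was higher by 0.5 in both groups, beside 4.08% of every probe set. The widest gaps were in MET 211599_x_at, -2.09 in DEGS1 siRNA cells and -1.56 in SPTLC123 siRNA cells, whereas the leading MET probe set gave -0.19 and 0.06. Where each probe set lies along its transcript was not analysed here, and the part of weak 5′ signal in these gaps was not tested.

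**Figure D5:**
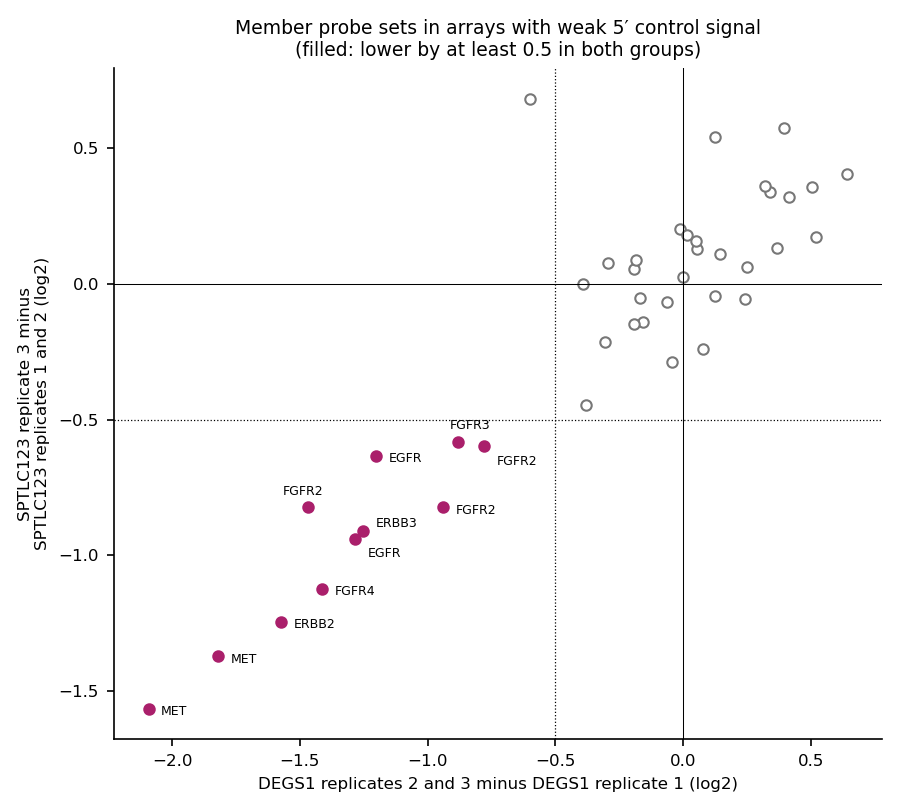
Each of the 42 probe sets, placed by the log2 difference of DEGS1 siRNA replicates 2 and 3 from replicate 1 (horizontal axis) and of SPTLC123 siRNA replicate 3 from replicates 1 and 2 (vertical axis), with dotted lines at the bound of -0.5. In the lower left corner lie 11 probe sets of 7 genes, among them both x_at probe sets of MET, while 203510_at lies near 0 on both axes.

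The other genes of the receptor pathways were counted in 6 lists by their leading probe sets in the same fit. Of all 19775 genes, 5.16% were called for DEGS1 minus scramble (2.63% higher and 2.53% lower), 6.42% for SPTLC123 minus scramble (3.47% higher and 2.95% lower) and 5.37% for DEGS1 minus SPTLC123 (2.38% higher and 2.99% lower). Of 22 ligands, ligand activators and co-receptors, 1 was lower and none higher in DEGS1 siRNA cells against scramble, 1 higher and 1 lower in SPTLC123 siRNA cells against scramble, and none was called between the silenced groups (3 at an unadjusted p under 0.05 in limma). FGF19, the ligand of FGFR4, read 8.91, 9.08 and 8.91 in DEGS1 siRNA cells, 9.16, 8.98 and 9.04 in SPTLC123 siRNA cells and 8.70, 8.41 and 8.52 in scramble cells. All arrays of silenced cells lay above scramble. FGF19 rose in SPTLC123 siRNA cells by 0.51 ± 0.10 (limma adjusted p = 0.0241), and its DEGS1 minus scramble difference was 0.42 ± 0.10 (limma adjusted p = 0.0599). The SPTLC123 call of FGF19 ended without any 1 of the SPTLC123 arrays or without scramble replicate 2 or 3 (adjusted p up to 0.0975) and without the arrays of weak 5′ signal (0.0601). EFNA1, an ephrin that binds EPHA2, fell in both silenced groups, with differences of -0.87 ± 0.19 after DEGS1 siRNA and -1.04 ± 0.19 after SPTLC123 siRNA (limma adjusted p = 0.0434 and 0.0168). The DEGS1 call ended without DEGS1 replicate 2 or 3, SPTLC123 replicate 1 or any scramble array (adjusted p up to 0.171). Without the arrays of weak 5′ signal, which leaves 1 DEGS1 array, the DEGS1 difference was -0.77. The SPTLC123 call ended without SPTLC123 replicate 1 or scramble replicate 1 or 2 (adjusted p up to 0.0706). HGF, the ligand of MET, read 5.37 to 5.42 in DEGS1 siRNA cells, 5.21 to 5.35 in SPTLC123 siRNA cells and 5.38 to 5.67 in scramble cells, with no call. MST1, the ligand of MST1R made by hepatocytes, was at 9.65 ± 0.35 in DEGS1 siRNA cells, 8.84 ± 0.39 in SPTLC123 siRNA cells and 9.58 ± 0.28 in scramble cells (mean ± SD, n = 3 each), also with no call.

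The relay below the receptors gave counts near the share of all genes called. Of 17 adaptors and relay kinases, none was called against scramble in DEGS1 or SPTLC123 siRNA cells, beside 5.16% and 6.42% of all genes. At an unadjusted p under 0.05 limma gave 5 and 3 of the 17. Between the silenced groups 1 of 17 (5.88%) was called, beside 5.37% of all genes. CRKL, an adaptor that binds GAB1 below MET, was called for DEGS1 minus SPTLC123 at 0.54 ± 0.08 (limma adjusted p = 0.00792), or 0.47 without the arrays of weak 5′ signal (limma adjusted p = 0.23). The other CRKL probe set differed the opposite way, by -0.75. Of 19 genes of feedback, dephosphorylation and receptor degradation, 1 fell in DEGS1 siRNA cells, 1 rose in SPTLC123 siRNA cells and none was called between them (4 at an unadjusted p under 0.05 in limma). PTPN1, a phosphatase that acts on receptor kinases, rose in SPTLC123 siRNA cells by 0.80 ± 0.14 (limma adjusted p = 0.0158). It read 8.49, 8.36 and 8.35 there against 7.85, 7.35 and 7.61 in scramble cells. The other 3 PTPN1 probe sets differed by -0.01 to 0.25 in this comparison, with no call. EPS15, an adaptor of receptor endocytosis, fell in DEGS1 siRNA cells by 0.43 on the log2 scale (limma adjusted p = 0.0485). That call ended without any 1 array other than DEGS1 replicate 1 and scramble replicate 1 (adjusted p up to 0.166). Without the arrays of weak 5′ signal, which leaves 1 DEGS1 array, EPS15 was at -0.46 from scramble. Its other probe set, at -0.47, was not called. The PTPN1 call ended without SPTLC123 replicate 1 or scramble replicate 2 or 3 (up to 0.0707).

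Of 15 genes induced by ERK signalling, 1 was higher in DEGS1 siRNA cells, and 1 was higher and 1 lower in SPTLC123 siRNA cells, against scramble (8 and 6 at an unadjusted p under 0.05 in limma), and none differed with a call between the silenced groups (3 at an unadjusted p under 0.05 in limma). PHLDA1, a target of ERK signalling, read 9.99, 10.13 and 10.14 in DEGS1 siRNA cells, 10.31, 9.76 and 10.06 in SPTLC123 siRNA cells and 9.07, 8.53 and 9.26 in scramble cells. It rose in both silenced groups, by 1.13 ± 0.19 after DEGS1 siRNA and 1.09 ± 0.19 after SPTLC123 siRNA (limma adjusted p = 0.0174 and 0.0153). Of 5 other PHLDA1 probe sets, 3 were called the same way in each comparison. Leaving out DEGS1 replicate 2 or 3 ended the first call (adjusted p up to 0.081) and SPTLC123 replicate 1 or 3 the second (up to 0.0649), and without the arrays of weak 5′ signal the values were 1.03 (0.268) and 1.08 (0.0481). FOS, an immediate early gene, fell in SPTLC123 siRNA cells by 1.99 on the log2 scale (limma adjusted p = 0.0319), but its mean there was under the array-wide median. Its scramble arrays spread widely, at 6.87, 6.16 and 5.46, and the call ended without any 1 of the SPTLC123 arrays or scramble replicate 1 or 2 (adjusted p up to 0.103). After DEGS1 siRNA, FOS differed by -1.45 ± 0.42 with no call (limma adjusted p = 0.107). EGR1, an immediate early transcription factor named after its values were seen, was at -1.23 ± 0.48 from scramble after DEGS1 siRNA and at -1.66 ± 0.48 after SPTLC123 siRNA, with no overlap of either silenced group with scramble. Neither difference passed (limma adjusted p = 0.205 and 0.0984), and the remaining members of this list were not called either.

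Of 14 membrane partners and sheddases, 1 was higher in SPTLC123 siRNA cells against scramble and none was called in DEGS1 siRNA cells against scramble or against SPTLC123 (2 and 5 at an unadjusted p under 0.05 in limma). NRP1, a co-receptor that binds several growth factors, was the one, at 0.52 ± 0.10 (limma adjusted p = 0.02), and the call ended without any 1 of the SPTLC123 or scramble arrays (adjusted p up to 0.0785). The other 3 NRP1 probe sets differed by -0.15 to 0.23 in this comparison, with no call.

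Of 37 other receptor tyrosine kinases measured, 2 were higher in DEGS1 siRNA cells and 4 in SPTLC123 siRNA cells against scramble, none was lower, and 1 was lower in DEGS1 than in SPTLC123 siRNA cells. EPHA5, an ephrin-A receptor best known from neurons, read 7.07, 6.80 and 7.20 in DEGS1 siRNA cells, 6.69, 6.90 and 7.33 in SPTLC123 siRNA cells and 5.48, 5.51 and 5.80 in scramble cells. All 6 arrays of silenced cells lay above scramble, by 1.43 ± 0.18 after DEGS1 siRNA and 1.38 ± 0.18 after SPTLC123 siRNA (2.69-fold and 2.60-fold, limma adjusted p = 0.00465 and 0.00308). Both EPHA5 calls stood without any 1 array and without the arrays of weak 5′ signal (limma adjusted p = 0.0217 and 0.00423), and 1 of 2 other EPHA5 probe sets was called the same way in each. Smaller rises in SPTLC123 siRNA cells were called for EPHB4, an ephrin-B receptor (0.44 ± 0.10, limma adjusted p = 0.037), ROR1, a receptor of WNT5A (0.50 ± 0.11, limma adjusted p = 0.0328), and RYK, a WNT receptor with an inactive kinase (0.46 ± 0.10, limma adjusted p = 0.0308). In this comparison the other EPHB4 probe set (0.24) and the other 2 of ROR1 (-0.13 and 0.43) were not called, and 1 of the other 2 of RYK was called the same way. Each of these 3 calls ended without any 1 array other than DEGS1 replicate 1 and a second array (SPTLC123 replicate 1 for EPHB4, scramble replicate 1 for ROR1, SPTLC123 replicate 3 for RYK), with adjusted p up to 0.125, and for EPHB4 and ROR1 also without the arrays of weak 5′ signal (0.107 and 0.0996). RYK was the gene lower in DEGS1 than in SPTLC123 siRNA cells (-0.43 ± 0.10, limma adjusted p = 0.0468). That call ended without any 1 of the same 7 arrays as its SPTLC123 call. Without the arrays of weak 5′ signal, which leaves 1 DEGS1 array, the difference was -0.47. The second gene higher in DEGS1 siRNA cells was TYRO3, a relative of AXL, named after its values were seen (0.40 ± 0.09, limma adjusted p = 0.0408). Its call ended without any 1 array other than DEGS1 replicate 1 and SPTLC123 replicate 3 (adjusted p up to 0.16). Without the arrays of weak 5′ signal, which leaves 1 DEGS1 array, TYRO3 was at 0.35 from scramble.

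The marker lists moved beside these values. Of 10 hepatocyte and hepatoma markers, 4 were lower in SPTLC123 siRNA cells against scramble and none was called in DEGS1 siRNA cells against scramble (5 at an unadjusted p under 0.05 in limma). Lower in SPTLC123 siRNA cells were TTR, the thyroxine carrier transthyretin (-1.03 ± 0.19, limma adjusted p = 0.0172), GPC3, a glypican (-0.55 ± 0.12, limma adjusted p = 0.0348), APOA1, the main protein of high-density lipoprotein (-0.46 ± 0.09, limma adjusted p = 0.0227), and, named after its values were seen, TF, the iron carrier transferrin (-0.37 ± 0.08, limma adjusted p = 0.0401). APOA1 and FGB, the fibrinogen beta chain, were higher in DEGS1 than in SPTLC123 siRNA cells, by 0.67 ± 0.09 (limma adjusted p = 0.00483) and 0.79 ± 0.16 (limma adjusted p = 0.0304), the same pair of groups and direction as ERBB3 and ERBB2. Of 12 markers of other liver cell types, KRT19, a bile duct keratin, was higher in SPTLC123 siRNA cells against scramble (0.75 ± 0.17, limma adjusted p = 0.042), and its other probe set differed the opposite way. The other probe sets of GPC3 against scramble (-0.15) and of FGB between the silenced groups (0.02) were not called. Of these marker calls, that of APOA1 between the silenced groups stood without any 1 array. That of TTR ended without SPTLC123 replicate 1 or scramble replicate 1 or 2 (adjusted p up to 0.0704), and the SPTLC123 call of APOA1 without SPTLC123 replicate 1 or 3 or any scramble array (up to 0.0908). FGB lost its call without DEGS1 replicate 2 or 3, SPTLC123 replicate 1 or 2 or scramble replicate 3 (up to 0.127), and GPC3, TF and KRT19 lost theirs without any 1 array other than DEGS1 replicate 1, DEGS1 replicate 3 for GPC3 and SPTLC123 replicate 3 for KRT19 (up to 0.146). Without the arrays of weak 5′ signal, TF was at -0.39 and APOA1 at -0.44 from scramble in SPTLC123 siRNA cells, and neither was called. With the 1 DEGS1 array left there, DEGS1 minus SPTLC123 was 0.79 for FGB and 0.52 for APOA1. The part of these marker differences in the receptor results was not tested.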

How the data were processed

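The deposited values are linear intensity values per probe set of 9 Affymetrix arrays, already normalized between arrays by the authors. Total RNA was copied from an oligo-dT primer and amplified by in vitro transcription with biotin, per the labels' protocols. RMA, GCRMA 2.12.1 and limma 2.14.7 are named in the submitters' processing notes, which do not say which of the first pair made the values. Array medians lay between 27.82 and 29.93, and the number of arrays limits the precision. Genes were named through the platform annotation, which can be old: 41091 probe sets had 1 symbol, 1801 several and 11721 were not listed. The 62 control probe sets were left out of the tests.

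Intensities were taken to log2 with no pseudocount and fitted in R 4.3.3 with limma 3.58.1 (lmFit and eBayes, 3 groups, 6 residual degrees of freedom) over all 54613 probe sets, two-sided, with Benjamini-Hochberg adjustment over all of them, and called at an adjusted p under 0.05. P-values measure the spread between samples labelled biological replicates. A gene was counted in a list by its leading probe set. Genes were named by rule: all 10 members, the siRNA targets, up to 4 called genes of each list by the smallest adjusted p, the 4 measured genes on either side of MET and the 6 most like MET. HGF and MST1, the ligands of MET and MST1R, were named outside this rule, as were EGR1, TF and TYRO3. Members and lists were chosen with earlier results of these data known. Promoter sequences are from RefSeq on GRCh38.p14, where 9 of the 10 members had an entry, ERBB3 being the one without. The further subunit gene of the SPTLC123 siRNA was not analysed here. Other normalizations, filters, array weights, an added pseudocount of 16, a replicate block, an actin 3′/5′ covariate and the removal of arrays were tried, with their effects given below.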

Additional observations from a re-analysis of the deposited data

How the results depend on the processing

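The leading MET probe set stayed 1.74 to 1.86 above scramble siRNA after DEGS1 siRNA and 1.97 to 2.06 after SPTLC123 siRNA when any 1 array was left out. Without the arrays of weak 5′ signal the DEGS1 value was 1.94, further from the value over all arrays than 1 SD. The number of called probe sets among the 38 of the other genes was within 1.5 times the count over all arrays in 7, 1 and 17 of 21 alternatives for DEGS1 minus scramble, SPTLC123 minus scramble and DEGS1 minus SPTLC123, and the cause of the other shifts was not tested. For DEGS1 minus scramble (2 called) it was 11 with array weights. It was 0 with only the 2 groups compared, with an adjusted p under 0.01, with the replicate block and with the actin covariate. It ran from 0 to 11 when 1 array was left out, with 11 without DEGS1 replicate 1. Leaving out the arrays of weak 5′ signal leaves 1 DEGS1 array, so counts of that fit are not given for comparisons with DEGS1. For SPTLC123 minus scramble (1 called) it was 0 after quantile normalization, with trend and robust eBayes and with an adjusted p under 0.01. It was 2 with one probe set per gene, with median centring, with only the 2 groups compared and with a pseudocount of 16, 3 without dim probe sets, with array weights and without the arrays of weak 5′ signal, and 10 with the actin covariate. Of the 38, only 9 were tested with one probe set per gene and 25 without dim probe sets. Over all tested, 1966 of 19775 and 2839 of 28647 were called in those 2 settings. For SPTLC123 minus scramble, leaving out 1 array gave 0 to 4, with 4 without DEGS1 replicate 1. For DEGS1 minus SPTLC123 (3 called) it was 10 with array weights and 5 with the replicate block. It was 3 to 10 when 1 array was left out, with 10 without DEGS1 replicate 1. Calls over all 54613 probe sets also varied. For DEGS1 minus scramble they numbered 1869, but 10150 with array weights, 1512 with the replicate block and 1459 with the actin covariate. They numbered 859 with only the 2 groups compared and 450 at an adjusted p under 0.01. With 1 array left out they ran from 491 to 9061, the highest without DEGS1 replicate 1. The settings with 0 of the 38 called thus had fewer calls over all probe sets too. For SPTLC123 minus scramble they numbered 2466, but 4591 with the actin covariate and 907 at an adjusted p under 0.01. With 1 array left out they ran from 1166 to 3100, the highest without DEGS1 replicate 1. For DEGS1 minus SPTLC123 they numbered 2017, but 9884 with array weights, 1672 with the replicate block and 600 at an adjusted p under 0.01. With 1 array left out they ran from 722 to 7151, the highest without DEGS1 replicate 1. Settings with 0 of the 38 called and at least 2 arrays per group were also counted at an unadjusted p under 0.05. There limma gave 7 to 13 for DEGS1 minus scramble and 4 to 9 for SPTLC123 minus scramble. Correlations of same-numbered residuals ran from -0.493 to 0.696. They cannot show whether the replicate numbers pair the arrays, since the arrays of weak 5′ signal fell unevenly over the replicates. No called difference of a named gene changed sign, and among uncalled ones 24 values of 5 genes did, between -0.36 and 0.21. Called genes of the 6 pathway lists (22, 17, 19, 15, 14 and 37 measured genes) numbered 5, 10 and 2 for DEGS1 minus scramble, SPTLC123 minus scramble and DEGS1 minus SPTLC123. Of all genes, 5.16%, 6.42% and 5.37% were called in these comparisons. Over the alternatives the list counts ran from 1 to 29, from 1 to 13 and up to 20, while calls over all probe sets varied too. Probe sets near or under the array-wide median lie at the low end of the array's range, which limits what can be said of MST1R, AXL and most of FGFR2.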
